A study of Mus musculus with 8 samples.

Results

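Mitf encodes a basic helix-loop-helix leucine zipper transcription factor that governs the melanocyte lineage, and its chromatin was examined here by ATAC-seq, an assay that marks open DNA by where the transposase Tn5 can insert adapters. The locus was taken as every counted region with its midpoint inside the Mitf gene of GRCm38, or within 50 kb of a gene end with Mitf as the nearest protein-coding gene. This gave 56 of the 148664 regions in the deposited table, of which 46 lay inside the gene, 7 before it and 3 after it. They are called elements below, and each is named by the distance in kb from the first annotated Mitf start to its midpoint.

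The 8 libraries came from 4 mouse melanoma cell lines, each profiled as 2 replicates of 50000 cells. The labels describe each line as a pool, started from lymph node cell suspensions of mice that developed skin melanoma at about 25 to 30 weeks of age, but also list the line number as a clone. Lines 112 and 113 carry the Stat3∆ genotype and are labelled STAT3 knockout, and lines 119 and 73 carry the Stat3fl allele and serve as wild type. Sample titles also hold p18 (112), p44 (113), p14 (119) and p68 (73), which the labels leave unexplained, and the tumour-driving allele and the Cre driver are not given in the sources used here. STAT3 is a transcription factor switched on by cytokine and growth factor receptors. The region at the Stat3 start had 84 to 170 counts in the knockout libraries and 101 to 152 in the wild-type libraries, so the open start of the targeted gene does not check the labels. Library totals ran from 2697546 counts (line 112, replicate 2) to 7464336 counts (line 119, replicate 1). The labels call the replicates biological but do not say whether they were separate cultures, so p-values between lines measure the spread between these libraries, which may be technical. With 2 lines per genotype, genotype cannot be told apart from other differences between the lines. For example, the region at the start of Ddx3y, a chromosome Y gene, had 0 counts in the 4 knockout libraries and 61 to 86 in the wild-type libraries.

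Mitf is transcribed from several alternative starts, each with its own first exon joined to shared downstream exons. The most upstream start gives the broadly expressed A form, and the most downstream start gives the M form of melanocytes and melanoma cells. The M promoter is a known meeting point of SOX10, PAX3, LEF1 and of CREB, which is activated when cAMP rises. MITF protein in turn switches on genes of pigment synthesis and of melanocyte growth and survival. Genes of other cell types were looked for at annotated starts: 0 of 7 lymphocyte markers and 0 of 4 epithelial markers had a counted region there, and 1 of 4 macrophage, 1 of 4 endothelial and 1 of 4 fibroblast markers did. Of 9 melanocyte markers 5 had one, Mitf itself among them, with summed levels of 85.3 CPM (counts scaled to a common library total) in line 112, 178 in 113, 36.2 in 119, and 50.1 in 73. Without Mitf the sums were 60.6, 142, 17.4 and 11 CPM. Col3a1, the fibroblast marker with a region, had 3.40 and 2.24 CPM in the knockout lines 112 and 113 and 9.88 and 12.2 CPM in the wild-type lines 119 and 73. The macrophage marker Cd68 had 4.48, 4.97, 1.95 and 13.0 CPM and the endothelial marker Kdr 3.82, 4.68, 7.38 and 5.72 CPM in lines 112, 113, 119 and 73. The part of other cells in the results below was not tested.

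The gene spans chr6:97807002-98021360 on the forward strand (GRCm38), a length of 214359 bp. Its nearest protein-coding neighbours are Frmd4b, 189.345 kb before it, and Gm765, 216.654 kb after it. The RefSeq promoter table of GRCm38.p6 holds 3 Mitf starts, at positions 97807058, 97929817 and 97991783 of chromosome 6, which are 0, 122.759 and 184.725 kb from the first. It does not name isoforms. The elements were 501 to 1412 bp long with a median of 587 bp. All peaks called in the window overlapped an element in each of the 8 libraries, and 38 of the 56 elements (67.9%) lay under a peak of at least 1 library, against 87.8% of all regions.

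The 250 bases before the first and the last start are shown because these promoters behaved differently across the lines. Both are from RefSeq (GRCm38.p6, forward strand), at chr6:97806808-97807057 and chr6:97991533-97991782. Capitals mark a match to TTGCNNAA, a C/EBP motif, in the first and a match to TGACGTCA, the cAMP response element bound by CREB, in the last.
first start: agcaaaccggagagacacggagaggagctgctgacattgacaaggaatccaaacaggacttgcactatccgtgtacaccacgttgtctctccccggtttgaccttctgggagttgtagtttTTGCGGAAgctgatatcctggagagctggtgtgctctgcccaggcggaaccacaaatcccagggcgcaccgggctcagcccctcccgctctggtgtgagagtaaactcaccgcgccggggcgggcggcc
last start: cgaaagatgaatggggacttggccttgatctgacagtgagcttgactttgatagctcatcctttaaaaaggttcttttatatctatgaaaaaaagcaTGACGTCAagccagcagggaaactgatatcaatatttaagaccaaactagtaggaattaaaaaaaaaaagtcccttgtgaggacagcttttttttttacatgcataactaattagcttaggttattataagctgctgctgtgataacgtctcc

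The first window is rich in G and C (59.6%) and holds 15 CpG dinucleotides, whereas the last has 36% G and C and 3 CpG. The TGACGTCA match begins 153 bases before the last start, and 1.55% of the 32851 promoter windows of the table hold one. The TTGCNNAA match begins 129 bases before the first start, a motif held by 9.56% of the windows. Motifs were searched on both strands by exact letters. Other motifs were searched too. CATGTG is the E-box preferred by MITF and its relatives, and the general E-box, CANNTG, includes it. SOX factors were given by the letters ACAAAG as well as by ACAATG. For STAT factors the letters were TTCNNNGAA, for AP-1 they were TGANTCA, and for TEAD factors they were GGAATG. None of these matched in either window. Among the 3 starts only the middle one held an E-box of the general form, 136 bases before it, as do 66.2% of the windows.

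The last start was open in both knockout lines and at a few counts in both wild-type lines, while the first start was open in all 4. The element that contains the last start lies 184.5 kb from the first (chr6:97991085-97992009). It had 17.5 and 11.1 CPM in the replicates of line 112, 19.3 and 16.4 in 113, 0.775 and 0.675 in 119, and 0.768 and 0.556 in 73. Every knockout library was above every wild-type library, whose values rest on 6, 4, 3 and 2 counts. Peaks were called over it in all 4 knockout libraries and in no wild-type library. Between the genotypes its level was 16.1 ± 2.53 CPM against 0.694 ± 0.0449 CPM (means ± SD over the line means, n = 2 lines per genotype), a log2 fold change of 4.50 (standard error 0.95). With lines as units, edgeR's quasi-likelihood test gave an adjusted p of 0.143 (unadjusted 0.000179), which does not pass the threshold of 0.05. Tested line against line, it was higher in each knockout line than in each wild-type line, with log2 differences from 4.26 to 4.69 and edgeR adjusted p of at most 1.89e-11. It was not called between the knockout lines (log2 difference -0.30, standard error 0.26, adjusted p 0.418) or between the wild-type lines (0.13, standard error 0.78, adjusted p 0.9).

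The first start lies in the element at 0.1 kb (chr6:97806694-97807718). Its levels were 28.6 and 20.9 CPM in line 112, 36.9 and 35.3 in 113, 17.2 and 20.4 in 119, and 38.2 and 40 in 73. A peak was called over it in all 8 libraries, and the genotypes overlapped, with a wild-type line highest and the other wild-type line lowest. Knockout over wild type, the log2 fold change was 0.10 (standard error 0.64, edgeR adjusted p 0.973), and its sign turned in 2 of the alternative settings. In line order the levels ran from 119 through 112 and 113 to 73. Neighbours 119 and 112 were not called apart (adjusted p 0.0824), nor were 113 and 73 (0.647), whereas 112 was lower than 113 (log2 difference -0.53, standard error 0.20, edgeR adjusted p 0.0425).

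Per kb of length, the last start reached 67.6% and 58.7% of the level of the first start in the libraries of line 112 and 57.8% and 51.6% in line 113. It reached 5.00% and 3.66% in line 119, against 2.23% and 1.54% for the libraries of line 73. The log2 ratio of last to first start, per kb, was -0.67 in line 112, -0.87 in 113, -4.55 in 119, and -5.75 in 73. The genotypes differed by 4.38 in this ratio, and the exact two-sided permutation p was 0.333, the smallest that 2 lines against 2 can give. A ratio within each library is the same whatever the library's scaling.

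The middle start, in the element at 122.4 kb (chr6:97928987-97929908), was weak throughout. It had 3.26 and 4.92 CPM in line 112, 2.04 and 3.14 in 113, 1.16 and 1.18 in 119, and 2.82 and 1.39 in 73, and no library had a peak there. Among the 6 pairs of lines only 112 against 119 was called (log2 difference 1.75, standard error 0.48, edgeR adjusted p 0.00223). The element at the far end of the gene (213.2 kb) also had no peak, with 1.93, 2.6, 0.686 and 0.673 CPM in lines 112, 113, 119 and 73.

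**Figure D1:**
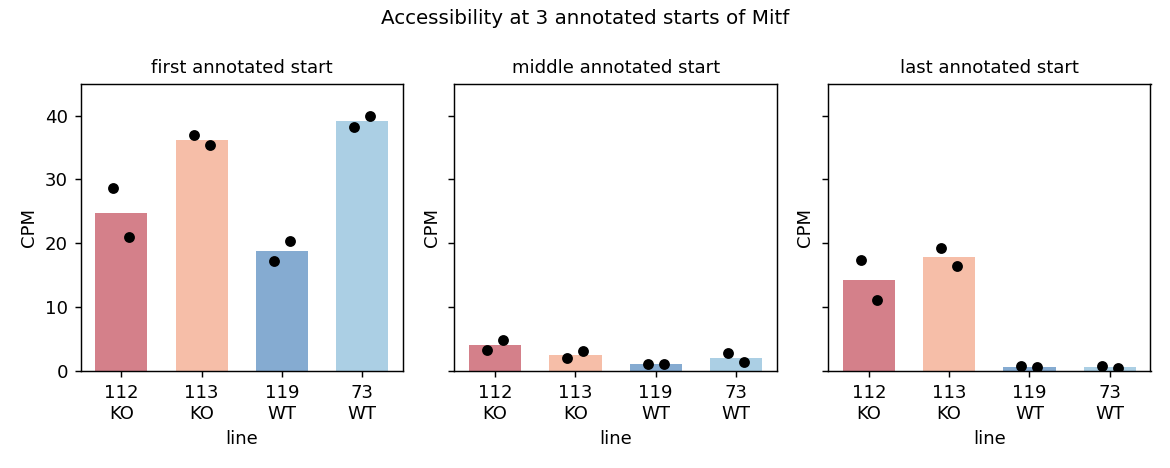
Accessibility at the 3 annotated Mitf starts. The vertical axis is CPM with TMM library sizes, points are libraries and bars are line means, for lines 112 and 113 (STAT3 knockout) and 119 and 73 (wild type). All 4 lines are high at the first start and low at the middle start, and at the last start the knockout libraries stand at 11.1 to 19.3 CPM with the wild-type libraries below 1.

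Across the whole locus the summed level was 386 and 323 CPM in line 112, 465 and 402 in 113, 190 and 187 in 119, and 225 and 234 in 73. All knockout libraries were above all wild-type libraries, and by line the means were 394 ± 55.6 CPM and 209 ± 29.0 CPM (SD of line means, n = 2 lines each; exact permutation p 0.333, the smallest possible). After the filter on low counts 54 elements were tested. The filter requires 2 lines to pass, which the elements at -24.4 and -12.6 kb did not. At -24.4 kb the libraries of line 119 had 28 and 35 counts, with few in the other lines. The test with lines as units called 0 of the 54, as it called 0% of all 140329 tested regions. At an unadjusted p under 0.05 it held 16 elements higher in the knockout lines, against 8.27% of all regions, and 2 lower, against 8.64%. DESeq2 called 11 elements, 10 higher and 1 lower, against 4.98% of all regions, and limma-voom, in which the line was a random block, called 1, against 0.291%. The estimate was higher in the knockout lines for 43 elements (46.5% of all regions), and the median log2 fold change was 1.09 over the elements and -0.09 over all regions.

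Tested line against line, 16 of the 54 elements (29.6%) were higher in each knockout line than in each wild-type line, against 7.64% of all regions. Only 2 elements were lower in all 4 such pairs, against 7.41%. The 16 lie at -40.4, -29.8, 90.7, 111.4, 112.4, 157.8, 163.5, 165.3, 171.7, 172.5, 184.5, 186.3, 193.6, 206.6, 220.4 and 239.8 kb. Of these, 14 are more than 90 kb into the gene or after it. Most elements of the locus lie there too, since the one at 90.7 kb is number 25 of the 56 in order of position. Of the 16 separated upward, 11 lay under a peak of some library. For 8 a peak was called in at least 1 library of each knockout line, and for 2 in at least 1 library of a wild-type line. At 111.4, 172.5 and 193.6 kb only 1 library of line 112 had the peak. Without any test, the 4 knockout libraries were all above the 4 wild-type libraries at 22 elements (14% of all regions) and all below at 3 (12.6%). Of the 18 elements separated in either direction, 11 stayed separated in every setting tried in which they were tested. Those that did not were the elements at -40.4, -29.8, 48.7, 112.4, 163.5, 165.3 and 220.4 kb.

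Line 112 was also higher over weak regions of chromosome 6 in general. Their median log2 ratio to the mean of the lines was 0.69 in line 112 on chromosome 6 and 0.14 on the other chromosomes, and from -0.46 to -0.26 on chromosome 6 in the other lines. Within 10 Mb of Mitf, elements left out, the medians over 1288 regions were 0.26, 0.05, -0.20 and -0.22 in lines 112, 113, 119 and 73, against 0.51, 0.47, -0.73 and -0.36 over the elements. With this local level taken out, 15 elements were separated, 12 higher and 3 lower, and 14 of these were among the 18. The share of all regions separated in this setting is not given here. The log2 fold change of the last start was then 4.22.

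**Figure D2:**
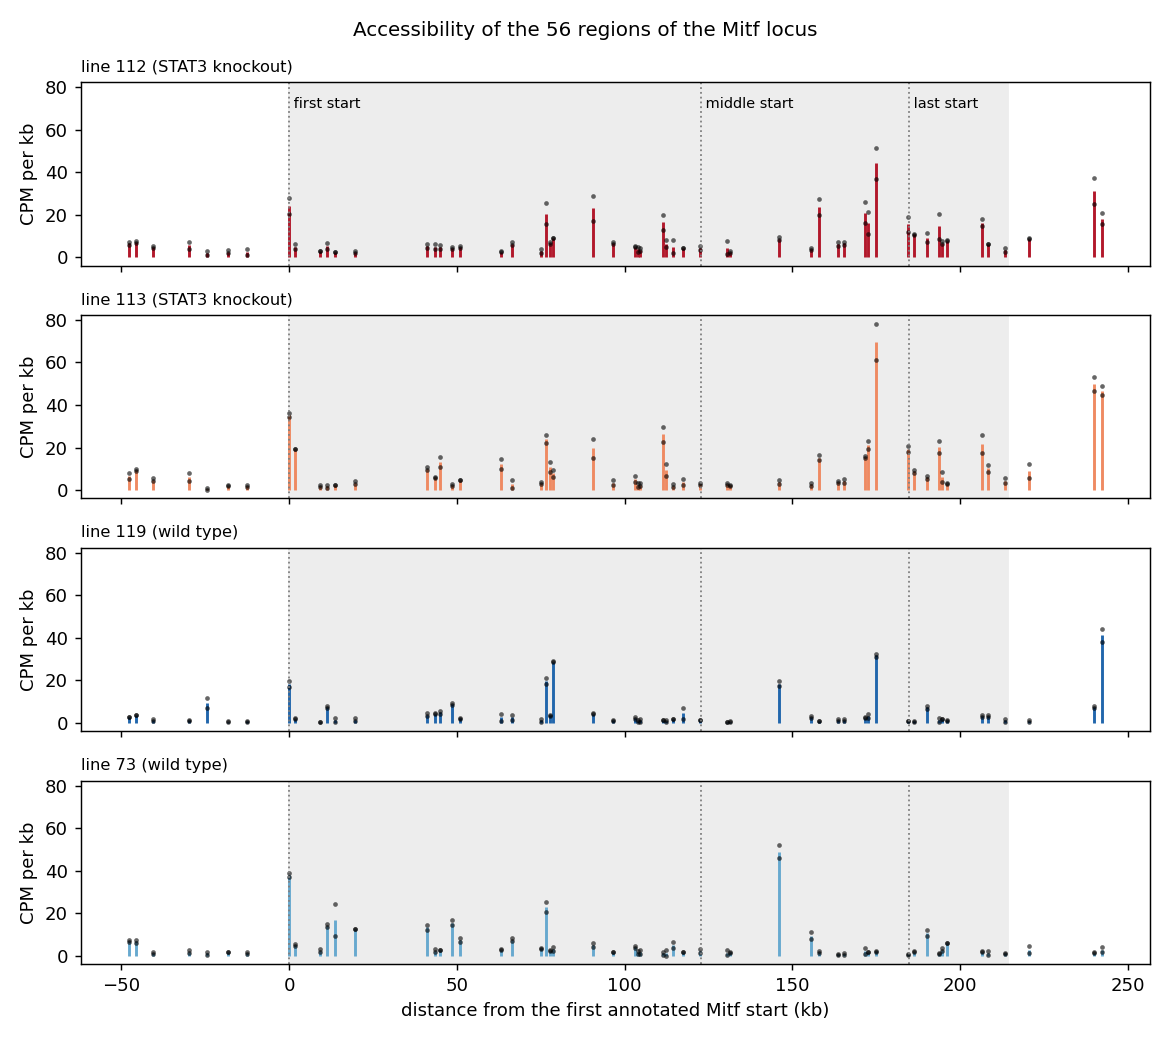
Accessibility of the 56 elements along the Mitf locus in the 4 lines. The horizontal axis is the distance from the first annotated start in kb and the vertical axis is the line mean in CPM per kb of element length. The element at 76.7 kb is between 19.8 and 24.1 CPM per kb in every line, whereas the one at the last start (184.5 kb) is high only in lines 112 and 113.

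The elements were then counted by stretch of the gene. Between the first and the middle start 3 of 27 elements were separated upward and 1 downward. Between the middle and the last start these were 5 and 1 of 10, and from the last start onward 6 and 0 of 12. Before the gene 2 of 5 tested elements were separated upward. Over all regions 7.64% were separated upward and 7.41% downward. The stretch with 3 of 27 was the nearest to the upward share of all regions. The median log2 fold change was 0.95, 0.60, 1.98 and 1.98 in these 4 stretches, taken in order from before the gene. From the last start onward, 11 of 12 estimates were higher in the knockout lines, against 46.5% of all regions. The summed levels there were 95.1, 133, 43.7 and 20.8 CPM in lines 112, 113, 119 and 73. Between the first and the middle start the sums were 156, 196, 97.3 and 153 CPM. Line 73 had the lowest sum from the last start onward but not between the first and the middle start.

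**Figure D3:**
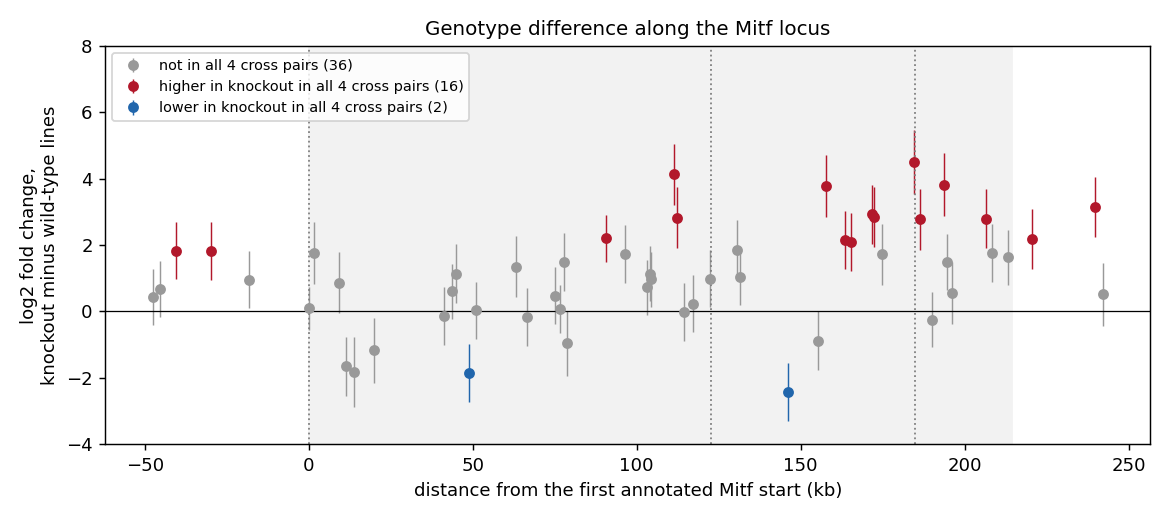
Log2 fold change, knockout over wild type, of the 54 tested elements by distance from the first start in kb. Bars are standard errors from the test with 2 lines against 2, and colour marks the elements separated in all 4 line pairs. The 2 elements separated downward are those at 48.7 and 146.0 kb, and other negative estimates lie at 11.3, 13.7, 19.8, 78.7 and 155.4 kb, among others.

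Besides the last start, the separated elements with the largest differences were those at 111.4, 193.6 and 157.8 kb. The element at 111.4 kb (chr6:97918005-97918983) had 19.6 and 12.6 CPM in line 112, 29.2 and 22 in 113, 1.16 and 1.18 in 119, and 1.79 and 0.556 in 73. Its log2 fold change was 4.13 (standard error 0.91, edgeR adjusted p 0.143), and it was called in all 4 pairs across the genotypes with log2 differences from 3.74 to 4.42. It lies before the middle start, which was itself weak in every library.

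At 157.8 kb (chr6:97964504-97965222) the levels were 19.8 and 14.2 CPM in line 112, 11.8 and 10.2 in 113, 0.775 and 0.675 in 119, and 1.02 and 1.67 in 73. Peaks were called there in the 4 knockout libraries only. The log2 fold change was 3.78 (standard error 0.94, edgeR adjusted p 0.143). The element at 193.6 kb (chr6:98000368-98000969), after the last start, had 12.3 and 5.23 CPM in line 112, 13.8 and 10.6 in 113, 0.388 and 1.35 in 119, and 0.512 and 0.833 in 73, a log2 fold change of 3.82 (standard error 0.95, adjusted p 0.143). At both elements the wild-type values rest on 2 to 8 counts per library.

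After the gene, the element at 239.8 kb (chr6:98046543-98047208) had 24.7 and 16.6 CPM in line 112, 35.3 and 31 in 113, 4.65 and 5.4 in 119, and 0.768 and 1.11 in 73. It was called in all 6 pairs of lines, so that the 4 lines stood in the order 113, 112, 119 and 73. Its log2 fold change between the genotypes was 3.14 (standard error 0.90, edgeR adjusted p 0.146), and the wild-type lines differed by 2.39 (standard error 0.50, adjusted p 5.63e-05).

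A broad element at 90.7 kb (chr6:97897064-97898475) was open in all lines, with peaks in all 8 libraries, and still separated the genotypes. It had 41 and 24.3 CPM in line 112, 34.2 and 21.5 in 113, 5.69 and 6.75 in 119, and 6.15 and 8.33 in 73, a log2 fold change of 2.2 (standard error 0.72, edgeR adjusted p 0.166). This is a difference of degree between open elements, unlike that at the last start, where no peak was called in the wild-type lines.

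By the line-against-line tests, 2 elements were lower in each knockout line than in each wild-type line. The element at 146.0 kb (chr6:97952742-97953329) had 4.65 and 5.54 CPM in line 112, 1.81 and 2.9 in 113, 11.5 and 10.3 in 119, and 30.7 and 26.9 in 73. Its log2 fold change was -2.43 (standard error 0.87, edgeR adjusted p 0.191). The wild-type lines also differed from each other, line 73 being higher (log2 difference of 119 against 73 -1.40, standard error 0.24, adjusted p 1.26e-06). The element at 48.7 kb (chr6:97855360-97856239) had 3.49 and 4.31 CPM in line 112, 2.49 and 1.69 in 113, 8.27 and 7.43 in 119, and 12.8 and 14.7 in 73. Its log2 fold change was -1.86 (standard error 0.87, adjusted p 0.288), again with line 73 above line 119.

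The element at 11.3 kb had the third smallest p among those lower in the knockout lines, without passing all 4 pairs. It had 2.09 and 3.69 CPM in line 112, 0.68 and 1.45 in 113, 4.01 and 4.56 in 119, and 7.43 and 8.33 in 73, a log2 fold change of -1.66 (standard error 0.90, edgeR adjusted p 0.358).

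Among the strongest elements were some that differed between lines of the same genotype. Per kb, the highest mean level of the locus was at 174.8 kb, the element before the last start (chr6:97981575-97982115). It had 27.7 and 20 CPM in line 112, 42.4 and 33.1 in 113, 16.8 and 17.6 in 119, but 1.28 and 1.11 in 73. Line 73 was lower than each other line, with log2 differences from 3.81 to 4.95 (edgeR adjusted p of at most 1.07e-12), while line 112 was not called apart from line 119 (0.49, standard error 0.22, adjusted p 0.0566). Its knockout libraries were all above its wild-type libraries, and line 113 was higher than line 119 (1.14, standard error 0.20, adjusted p 3.5e-06). It counted as separated by genotype with total counts, among regions under a peak, with at least 50 counts on average and without replicate 2 of line 112. Line 119 had this element open with the start after it at 6 and 4 counts.

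At 242.2 kb (chr6:98048952-98049576) the levels were 9.78 and 12.9 CPM in line 112, 30.6 and 27.8 in 113, 23.9 and 27.7 in 119, and 2.56 and 1.11 in 73. Lines 113 and 119, of different genotypes, were not called apart (log2 difference 0.18, standard error 0.21, edgeR adjusted p 0.451), line 112 was lower than both, and line 73 lower than all. The element at 78.7 kb (chr6:97885533-97886041) had 4.65 and 4.62 CPM in line 112, 3.17 and 4.84 in 113, 14.7 and 14.7 in 119, and 2.05 and 1.11 in 73. Among the 54 tested elements it alone was higher in line 119 than in each other line, against 11% of all regions. Without the filter on low counts, which drops a region that passes in a single line, the element at -24.4 kb had the same pattern. It had 0.465 and 1.54 CPM in line 112, 0 and 0.484 in 113, 3.62 and 5.91 in 119, and 1.02 and 0.278 in 73.

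In all, line 73 was lower than each other line at 4 elements (78.7, 174.8, 239.8 and 242.2 kb), against 10.2% of all regions. It was higher than each other line at 6 (11.3, 13.7, 19.8, 48.7, 146.0 and 155.4 kb), against 13.2%. Line 113 was higher than the rest at 5 (7.26% of all regions) and line 119 lower than the rest at 3 (4.86%). No element set line 112 apart in either direction (1.76% of all regions higher and 1.28% lower).

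The element at 76.7 kb (chr6:97883394-97884091) varied least. It had 17.7 and 10.8 CPM in line 112, 18.1 and 15.5 in 113, 14.9 and 12.8 in 119, and 14.3 and 17.8 in 73, with a peak in every library and a coefficient of variation between lines of 0.0934. The test over the 4 lines did not call it (edgeR adjusted p 0.671), and its log2 fold change was 0.07 (standard error 0.73). The nearby element at 78.7 kb is one of those that differed most between the wild-type lines (log2 difference 3.18, standard error 0.37, adjusted p 1.66e-10). The element between them, at 77.7 kb, was not called between the wild-type lines (0.57, standard error 0.52, edgeR adjusted p 0.353).

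**Figure D4:**
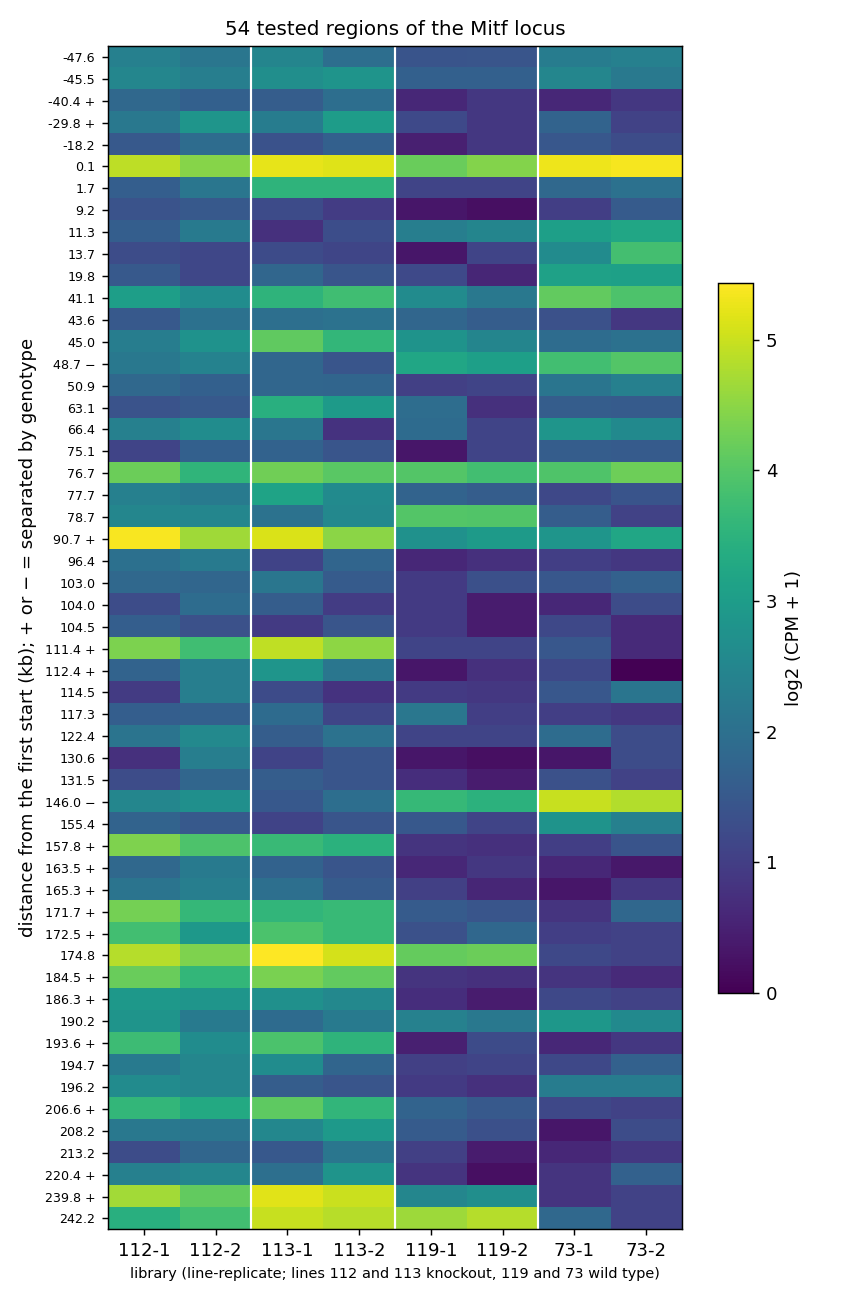
The 54 tested elements of the Mitf locus in the 8 libraries (columns), as log2 (CPM + 1) by colour. Rows run from before the gene to after it, with a sign beside those separated by genotype. Runs of higher values in lines 112 and 113 lie mostly beyond 90 kb, where most of the rows lie, and the row at 76.7 kb is even across the lines.

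Of the 54 elements, 46 differed among the 4 lines, close to the 82.9% of all regions that did. Between the knockout lines 9 elements differed, 1 higher and 8 lower in line 112, against 23.8% of all regions called (8.24% higher and 15.6% lower). This direction was not stable, since scaling by total counts gave 8 higher and 4 lower, and leaving out replicate 2 of line 112 gave 4 and 4. The wild-type lines differed at 21 elements, 4 higher and 17 lower in line 119, against 56.9% (27.5% higher and 29.4% lower). With total counts these were 6 higher and 12 lower. Across the genotypes line 112 differed from line 119 at 31 elements, against 45.8% of all regions, and from line 73 at 31, against 49.9%. In line 112, 27 elements were higher and 4 lower than in line 119 (22.2% and 23.5% of all regions), and 23 higher and 8 lower than in line 73 (23.8% and 26.1%). Line 113 differed from line 119 at 39 (58.9%) and from line 73 at 33 (52.2%). In line 113, 35 elements were higher and 4 lower than in line 119 (30.2% and 28.8% of all regions), and 26 higher and 7 lower than in line 73 (25.8% and 26.5%). These comparisons share lines and are not independent of one another.

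Peak calls gave the number of open elements in each line. Both libraries of a line had a peak over 9 of the 56 elements in line 112, 17 in 113, 13 in 119, and 11 in 73, or 16.1%, 30.4%, 23.2% and 19.6%. The same shares over all regions were 12.0%, 27.9%, 50.4% and 30.0%. Line 119 thus had the largest share over all regions and line 113 at Mitf. The number of peaks in a library also moves with its depth, from 20387 (line 112, replicate 2) to 94906 peaks (line 119, replicate 1).

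Regions near other genes of the MITF pathway were read in the same fits. The lists were drawn up with earlier results of these data known, so their direction is not independent evidence, and the test with lines as units called 0 regions in each list. At 14 melanosome and pigment targets of MITF, 51 of 125 tested regions were higher in each knockout line than in each wild-type line (40.8%, against 7.64% of all regions) and 3 were lower (2.4%, against 7.41%), and the median log2 fold change was 1.36. Of the 8 genes of this list with a counted region at their start, 7 had it separated upward, all but Tyrp1. The share of all gene starts separated upward is not given here, for this list or for those below. At Oca2, which encodes a melanosomal membrane transporter, the region with the smallest p (chr7:56390965-56392205) had 11.8, 18.8, 0.700 and 0.267 CPM in lines 112, 113, 119 and 73. The region at the start of Dct, encoding dopachrome tautomerase, had 22.8, 62.5, 3.79 and 0.534 CPM, and one near Mlana, which encodes a melanosome antigen, had 10.4, 10.3, 0.745 and 0.256 CPM.

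Growth and survival targets of MITF (7 genes) had 19 of 145 regions separated upward (13.1%, against 7.64% of all regions) and 10 downward (6.90%, against 7.41%), with a median of 0.13. Of their 5 starts only that of Ppargc1a, a coactivator of mitochondrial genes, was separated, at 3.67, 16.7, 1.43 and 1.21 CPM in lines 112, 113, 119 and 73. The starts of Met, the receptor of hepatocyte growth factor, and of Bcl2, an inhibitor of apoptosis, were not (log2 fold changes 0.14 and 0.06, edgeR adjusted p 0.956 and 0.982). The region near Met with the smallest p (chr6:17515798-17516970) had 22.1, 33.2, 3.05 and 2.26 CPM.

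Upstream regulators of Mitf (11 genes) had 31 of 201 regions separated upward (15.4%, against 7.64% of all regions) and 11 downward (5.47%, against 7.41%), with a median of 0.24. Pax3, whose product binds the M promoter, accounted for 16 of the 31. Its region with the smallest p (chr1:78068977-78070179) had 14, 21.3, 1.40 and 1.61 CPM in lines 112, 113, 119 and 73. Lef1, the nuclear partner of beta-catenin, gave the region with the smallest p of the list in the other direction (chr3:131085164-131085718), with 1.1, 0.582, 17.2 and 18.2 CPM and a log2 fold change of -4.44 (standard error 0.96, edgeR adjusted p 0.143). A region near Foxd3, a neural crest repressor of Mitf, had 3.01, 10.7, 0.383 and 0.523 CPM, while the start of Foxd3 did not separate the genotypes (log2 fold change 0.42, adjusted p 0.857). Of the 8 starts of this list with a counted region, only that of Kit was separated. It was higher in the knockout lines, at 23.1, 46.4, 11.8 and 6.73 CPM in lines 112, 113, 119 and 73. Among the relatives of MITF in the TFE family, 2 of 22 regions were separated upward, both at Tfec, and 0 downward, with a median of -0.01. The upward share of 9.09% is near the 7.64% of all regions. The starts of Tfeb and Tfe3, which regulate lysosomal genes, had log2 fold changes of -0.01 and 0.03.

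Over the 8 libraries of the 4 lines, the summed level of the Mitf elements was compared with that of 8005 protein-coding genes with at least 5 regions. The highest Pearson correlations of log2 CPM were those of Epha6 (0.993, 13 regions), Cyp4b1 (0.993, 5 regions), Hsd17b2 (0.991, 5 regions), Cda (0.988, 5 regions) and Cers4 (0.987, 9 regions). These are descriptions over libraries that share lines. Epha6, which encodes an ephrin receptor, had summed levels of 42.6, 62.4, 7.38 and 11.7 CPM in lines 112, 113, 119 and 73.

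The elements nearest the limits of the window are given with the next region outside. Before the gene, the outermost element, 47.5 kb from it, had 3.79, 3.72, 1.68 and 4.00 CPM in lines 112, 113, 119 and 73, and the next region beyond the limit, at 62.8 kb, had 4.98, 4.57, 2.62 and 1.33. After the gene, the outermost element was that at 242.2 kb, 27.9 kb from the gene end, and the next region, 62.5 kb from it, had 3.98, 10.3, 0.551 and 0.651 CPM.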

How the data were processed

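For the 8 libraries the authors deposited raw counts over 148664 regions, and peaks per library with a score, a fold (ratio) over background and −log10 p and q for each peak. The submitters' processing notes name mm10/GRCm38, Bowtie2 2.2.4, Picard 1.118 and MACS2 2.1.1.20160309, without roles. How duplicates were treated, whether reads or transposase cuts were counted, and whether positions were shifted for the transposase is not given in the sources used here. Peaks were read by overlap of at least 1 bp, and scores were not used. Coordinates are counted from 1.

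Counts were filtered with filterByExpr on line sums by genotype (minimum count 10, total 15), which kept 140329 regions, and scaled by TMM. Genotypes were tested with edgeR 4.0.16 (R 4.3.3, robust glmQLFit, glmQLFTest, two-sided) on counts summed per line, and lines in pairs and together in 1 fit of the 8 libraries. P-values were Benjamini-Hochberg adjusted over all tested regions at 0.05. CPM is the count scaled by the TMM library size. Standard errors are the log2 difference divided by the square root of F. DESeq2 1.42.0 and limma 3.58.1 served as alternatives, with other scalings, filters, a local offset and left-out libraries. Gene positions came from RefSeq tables of GRCm38.p6, which give no exons, so elements were not placed in exons or introns. A genome sequence was not used here.

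Elements given with all values were those nearest the annotated starts and gene end, the 3 highest per kb, the 3 with the smallest p in each direction, up to 4 separated ones with the largest change, and 1 per line that stood apart. The elements at -24.4, 76.7 and 90.7 kb fell outside this rule and were added after their values were seen. Members and lists were chosen with earlier results of these data known. Replicates differed beyond counting noise (chi-square per degree of freedom 1.98, 1.47, 1.07 and 1.35 in lines 112, 113, 119 and 73). On simulated data of 30000 regions, the test of line 112 against line 119 recovered 8.5% of 200 regions changed 2-fold, 79% changed 4-fold and 100% changed 16-fold. The test of 2 lines against 2 recovered 0%, 0% and 59%. The simulation gave every region the same spread and changed only 200 of the 30000 regions. In the data, 45.8% of regions were called between lines 112 and 119. These rates therefore do not give the recovery of the tests in the data.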

Additional observations from a re-analysis of the deposited data

Results flagged for a closer look

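The libraries of each genotype were checked for 1 that lay far from the other 3 (Dixon's 95% critical value). This was done in 32 sets of values of the named elements and the whole locus, and 2 were found. The rate of about 1 in 20 by chance is for independent values. It does not apply here, since the libraries of a genotype come from 2 lines with 2 replicates each and the sets share libraries. At the element at 78.7 kb, replicate 1 of line 113 had 3.17 CPM, below the 4.62 to 4.84 CPM of the other knockout libraries. At the element of the middle start (122.4 kb), replicate 1 of line 73 had 2.82 CPM, above the 1.16 to 1.39 CPM of the other wild-type libraries. Their causes were not tested.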

How the results depend on the processing

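Of 86 values of the counts of elements under other settings (left-out libraries apart), 63 stayed within 1.5 times the reported count, as did 70 of 72 with a library left out. The genotype test, which called 0 elements, called 2 among regions under a peak. With libraries as units it called 24 with no replicate block and 19 with the replicate block. It called 1 by limma-voom (0.291% of all regions) and 11 by DESeq2 (4.98%). It called 0 to 2 with a library left out, the 2 without replicate 1 of line 112. Libraries as units treat replicates of a line as independent lines. Apart from the 2 shares above, the share of all regions called is not given here for the other settings. Their counts are therefore not set against a background. With at least 50 counts on average, only elements with high counts were tested, and the counts called became 3 (112 against 113), 5 (119 against 73), 6 (112 against 119), 5 (112 against 73), 5 (113 against 119), 5 (113 against 73), 6 (4 lines) and 4 (separated). DESeq2 called 4 (112 against 113), 11 (119 against 73), 20 (112 against 119) and 11 (separated). With a library left out, which lets a lone library vary as the other lines do, the ranges were 5 to 13, 14 to 23, 24 to 31, 24 to 31, 30 to 42, 27 to 35, 37 to 47 and 14 to 17 in the same order, the 5 without replicate 1 of line 113. The cause of these shifts was not tested beyond the smaller number of elements or libraries. The replicate block gave 10, 20, 31, 31, 38, 33, 45 and 18 in that order. Replicate numbers did not pair the libraries, whose deviations correlated from -0.04 to 0.00 between lines. Elements under a peak in both libraries numbered 3, 10, 7 and 4 in lines 112, 113, 119 and 73 when peaks had to cover 50% of the element, 14 in line 112 with a peak in either library, and 6 in line 73 at a −log10 q of at least 5. Among 241 log2 fold changes of named elements under other settings, 212 kept direction and side of the threshold, 27 passed it and 2 reversed. Both reversals were at the first start, -0.18 with the local level of chromosome 6 taken out and -0.029 without replicate 1 of line 112, where leaving out a library gave -0.029 to 0.16. The locus held 56 elements by distance from region edges and 47 within 10 kb of the gene. The wild-type values at the last start and similar elements rest on a few counts. The wild-type libraries were not the shallowest, which was replicate 2 of knockout line 112 (2697546 counts).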
